A study of Mus musculus with 12 samples.

Results

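Tumor cells communicate with their surroundings through cytokines and chemokines, small secreted proteins that bind receptors on neighbouring cells. Transcripts of 9 such genes were followed in GSC-H cells, namely Il33, Il6, Lif, Csf1, Cxcl1, Cxcl10, Cxcl12, Ccl2 and Ccl7. They were taken by gene symbol from the 19505 named genes of the arrays, and each of the 9 had a single probe set, the group of short oligonucleotides that reports a gene. Il33 was selected on its measured log2 signals in the hypoxic groups, where it differed strongly between drug and PBS. Its values on the hypoxia arrays are therefore described without a test, whereas the other 8 genes were tested in every comparison. All 9 genes were, however, chosen with earlier results of these data known, and the p-values of the other 8 do not account for that.

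GSC-H is a mouse glioma stem cell culture, isolated from tumors that grew from Ink4a/Arf-null neural stem/progenitor cells expressing H-RasV12, an active H-Ras. All 4 groups share this origin and genotype. They were exposed for 24 h to phosphate-buffered saline (PBS) in normoxia (21% O2 per the labels; Nx P), to 3 mM doranidazole in normoxia (Nx D), to PBS in 1% O2 (Hx P) or to 3 mM doranidazole in 1% O2 (Hx D), with 3 arrays labelled as biological replicates in each group. Doranidazole is a 2-nitroimidazole, a class of drugs developed to sensitize hypoxic cells to radiation. The cells were grown in serum-free medium with EGF and bFGF.

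The deposited values are log2 signals, so that a difference of 1 is a doubling. Array medians lay between 4.65 and 4.88. The Hx D arrays stood apart in spread, with 75th percentiles of 8.60 to 9.02 against 9.09 to 9.27 on the other 9 arrays. The 25th percentiles of the Hx D arrays were higher, at 3.27 to 3.45 against 3.07 to 3.18. Low signals as a whole thus lay higher on them, which bears on dim genes that rose in Hx D. Differences were tested with limma over all 12 arrays, and a gene passed at a Benjamini-Hochberg adjusted p under 0.05 over all 22206 probe sets. Of 6 stem cell markers, Cd44, Nes and Sox2 lay well above the array medians and Prom1 did not exceed 3.68. The mean of these markers was 8.82 to 8.96 on the Hx D arrays against 10.18 to 10.85 on the others. Between Hx D and Hx P only 3 of the 6 passed, namely Sox2, Olig2 and Fabp7, all lower in Hx D. The log2 fold changes of the 6 ranged from -5.88 to 0.27. The mean of 9 microglia and macrophage markers was 3.34 to 3.71 over all groups, and no marker list of T and B cells, endothelium, fibroblasts and pericytes, oligodendrocytes or astrocytes had a mean above 4.69 on any array. In Hx D relative to Hx P, the B cell marker Cd79a, the endothelial Pecam1 and the astrocyte Slc1a2 rose, and Pdgfrb of pericytes and Aqp4 of astrocytes fell. Cdkn2a, the Ink4a/Arf gene, lay between 1.94 and 2.49 on all arrays, although whether its probes fall within the deleted part is not known here.

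IL-33 is a nuclear cytokine of the IL-1 family that is released when cells are damaged and acts through ST2 (Il1rl1) together with IL1RAP. LIF and IL-6 belong to the cytokine family that signals through gp130 (Il6st) and the JAK-STAT3 pathway, and CSF-1 is the growth factor of macrophages and microglia, which carry its receptor CSF1R. CXCL1 attracts neutrophils, CXCL10 is an interferon-induced chemokine for T cells, CXCL12 is the ligand of CXCR4, and CCL2 and CCL7 recruit monocytes through CCR2.

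RefSeq windows of 300 bases around the start site (GRCm38.p6) were matched for 7 of the 9 genes, 8 windows in all, and those of the 3 genes that carry the results are shown so that their letters can be read beside the signals. Ccl2 and Ccl7 were not matched. Both strands were searched for an AP-1 site (TGACTCA), a hypoxia response element core (ACGTG), an antioxidant response element core (TGACNNNGC) and an NF-kB site (GGGNN followed directly by TTTCC), where N is any base. AP-1 and antioxidant response element letters can overlap. The capitals mark matches, the sequences run 5′ to 3′ on the strand of the gene, and positions are counted from the start site.
Il33, first start site, chr19:29924863-29925162, plus strand: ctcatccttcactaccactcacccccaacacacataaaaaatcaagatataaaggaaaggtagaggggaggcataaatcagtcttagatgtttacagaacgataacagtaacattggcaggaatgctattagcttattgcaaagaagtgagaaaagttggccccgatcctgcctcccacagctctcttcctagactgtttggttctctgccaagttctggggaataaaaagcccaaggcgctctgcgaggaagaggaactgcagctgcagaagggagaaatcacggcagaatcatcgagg
Il33, second start site, chr19:29945540-29945839, plus strand: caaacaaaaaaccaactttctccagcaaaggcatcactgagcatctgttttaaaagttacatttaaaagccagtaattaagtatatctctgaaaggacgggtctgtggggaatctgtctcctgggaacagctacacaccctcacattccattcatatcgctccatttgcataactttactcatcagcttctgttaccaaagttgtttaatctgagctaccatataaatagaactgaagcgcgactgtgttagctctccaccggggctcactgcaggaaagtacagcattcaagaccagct
Lif, chr11:4257318-4257617, plus strand: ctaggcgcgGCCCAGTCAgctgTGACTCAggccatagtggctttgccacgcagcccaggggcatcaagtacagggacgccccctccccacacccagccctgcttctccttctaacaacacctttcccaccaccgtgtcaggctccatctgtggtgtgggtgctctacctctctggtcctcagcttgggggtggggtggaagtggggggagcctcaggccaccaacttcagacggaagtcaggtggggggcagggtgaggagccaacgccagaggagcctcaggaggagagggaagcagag
Csf1, chr3:107760420-107760719, minus strand: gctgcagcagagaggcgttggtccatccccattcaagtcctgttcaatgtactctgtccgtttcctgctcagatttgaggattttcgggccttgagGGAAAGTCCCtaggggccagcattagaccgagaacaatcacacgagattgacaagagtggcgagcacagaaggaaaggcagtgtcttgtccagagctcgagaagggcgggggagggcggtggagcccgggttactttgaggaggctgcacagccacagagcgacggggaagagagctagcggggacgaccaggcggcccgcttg
None of the 4 patterns matched in either Il33 window. The Lif window held the AP-1 letters from position -228 and, on the opposite strand, the antioxidant response element letters from -241 (GCCCAGTCA). The Csf1 window held a single NF-kB match on the opposite strand from -154 (GGAAAGTCCC). Over 32851 promoter windows of the same length, 5.2% held the AP-1 letters, 19.6% the hypoxia response element core, 12.4% the antioxidant response element core and 1.63% the NF-kB letters. The windows of Il6 (1 AP-1 and 1 NF-kB match), Cxcl1 (2 NF-kB matches and 1 hypoxia response element core) and Cxcl10 (overlapping AP-1 and antioxidant response element matches) also held such letters, and that of Cxcl12 held none. These matches describe the sequence only, and no binding was measured.

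Il33 transcripts were most abundant in Hx P, followed by Nx P and Nx D, and least abundant in Hx D. The log2 signals of replicates 1, 2 and 3 were 13.06, 14.16 and 12.22 in Hx P, and 7.06, 5.65 and 7.25 in Hx D. In Nx P they were 11.15, 13.95 and 10.74, and in Nx D they were 10.31, 12.26 and 9.98. Every Hx D array thus lay below every other array for this gene, whereas Nx P overlapped both Hx P and Nx D. Replicate 2 had the highest signal in Nx P, Nx D and Hx P and the lowest in Hx D.

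**Figure D1:**
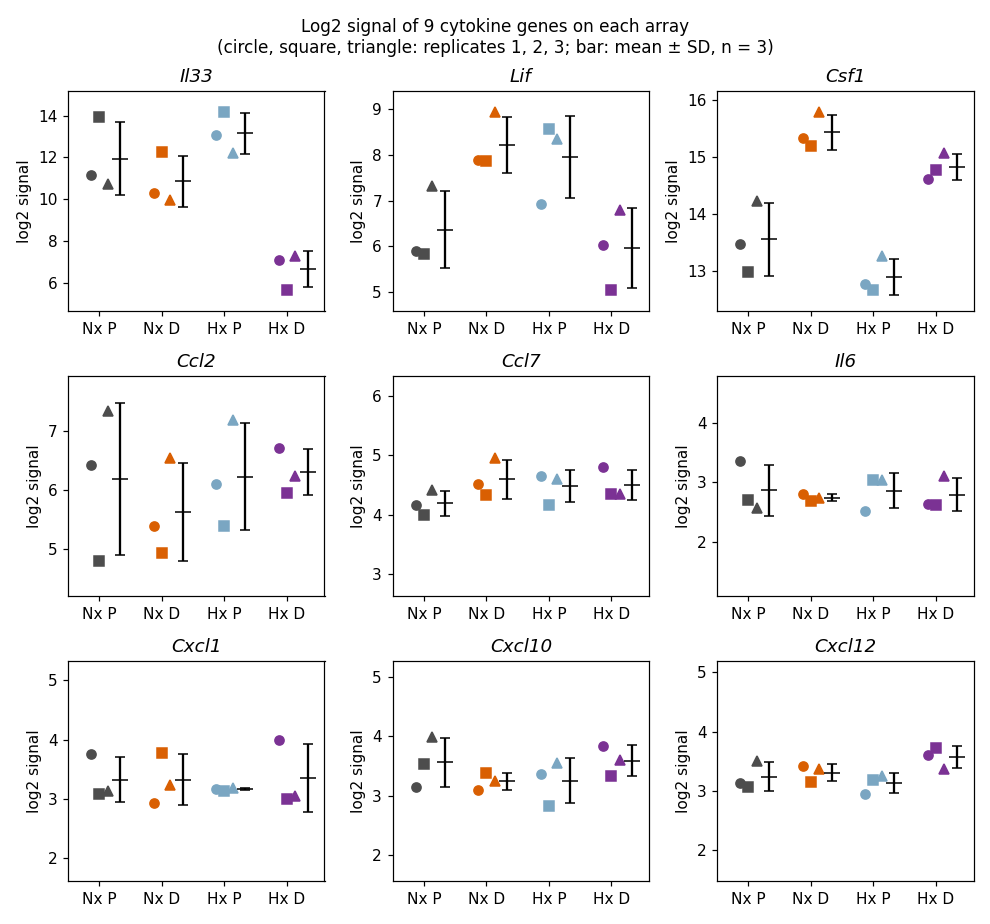
Log2 signal (vertical axes, with a separate range for each gene) of the 9 cytokine genes on each array of the groups Nx P, Nx D, Hx P and Hx D. Symbols mark replicates and bars the mean ± SD of 3 arrays; Il33 lay at 5.65 to 7.25 in Hx D and at 9.98 or above elsewhere, Csf1 was higher with doranidazole at both oxygen levels, and the genes of the lowest row stayed between 2.83 and 4.00.

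The group means of Il33 were 13.15 ± 0.97 in Hx P, 11.94 ± 1.75 in Nx P, 10.85 ± 1.23 in Nx D and 6.65 ± 0.87 in Hx D (SD, n = 3). Between the hypoxic groups the difference of means was -6.49 on the log2 scale, or 89.9-fold lower with doranidazole. It stayed between -6.95 and -5.99 when any 1 array was left out. Il33 was chosen on these arrays, so that the size of the difference and this range partly follow from the choice. The same-numbered hypoxia arrays differed by -6.00, -8.50 and -4.97, although they shared only a number and did not deviate together across genes. With doranidazole, the 1% O2 arrays were lower than the normoxia arrays by 4.19 on average, whereas with PBS they were higher by 1.20. In bulk RNA, fewer cells of a type and less RNA per cell cannot be told apart. Sox2, Olig2 and Fabp7, the 3 of 6 stem cell markers that passed, all lower in Hx D, are to be read beside these values. Nes, Prom1 and Cd44 did not pass there. Fabp7 was also lower with doranidazole in normoxia (limma adjusted p = 0.0313), where Il33 did not pass. The part of the stem cell markers, and of the markers of other cell types that moved, in the Il33 difference was not tested.

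In normoxia, where Il33 was tested, the difference between doranidazole and PBS was -1.10 (SE 0.82, 95% CI -2.88 to 0.69) and did not pass (adjusted p = 0.695, limma). Without replicate 2 of Nx P it was -0.09, and without replicate 2 of Nx D it was -1.80. The same-numbered normoxia arrays differed by -0.84, -1.70 and -0.76, all lower with the drug. Because same-numbered arrays of these groups deviated together across genes, the replicate number was also fitted as a block. The adjusted p for Il33 was then 0.0208 over the 6 normoxia arrays alone, a fit added after the data had been seen, and 0.585 over all arrays.

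The genes whose profile over the 12 arrays was nearest to that of Il33 were Aldoc, a glycolytic aldolase of the brain, Cacng3, an auxiliary subunit of calcium channels and AMPA receptors, Cd93, a transmembrane receptor of endothelial and myeloid cells, Map2k6, a kinase upstream of p38, and Kif21b, a kinesin. Nearness was the root mean square difference between log2 signals after subtraction of the mean of each gene, and was 0.809 for Aldoc, 0.954 for Cacng3, 0.974 for Cd93, 0.991 for Map2k6 and 0.993 for Kif21b, whereas Il33 itself ranged over 8.50. Each of these genes had its lowest group mean in Hx D, which largely follows from their choice by nearness to Il33 on the same arrays. For Aldoc, group means were 13.77 in Nx P, 13.09 in Nx D, 14.72 in Hx P and 9.53 in Hx D, the same order as for Il33. This likeness is a description and not a separate result.

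**Figure D2:**
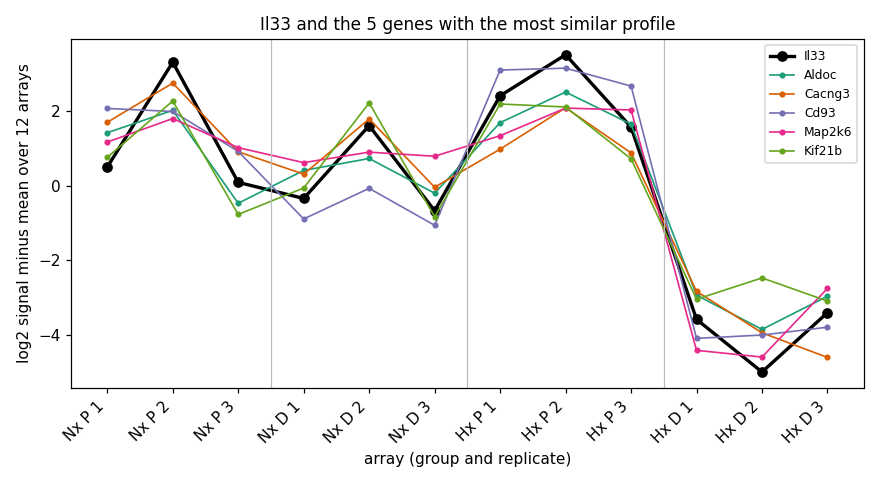
Log2 signal minus the mean of the gene over the 12 arrays (vertical axis) for Il33 and the 5 genes nearest to it, with the arrays by group and replicate on the horizontal axis. All 6 genes lay below their own mean on the 3 Hx D arrays, which for the 5 genes largely follows from their choice. Il33 had peaks at replicate 2 in Nx P, Nx D and Hx P.

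Csf1 was higher with doranidazole than with PBS at both oxygen levels. In Nx P the 3 arrays read 13.46, 12.97 and 14.23, and in Nx D they read 15.32, 15.18 and 15.78. In Hx P they read 12.76, 12.66 and 13.25, and in Hx D they read 14.61, 14.77 and 15.07. The drug and PBS groups did not overlap in either condition. Replicate 3 was highest in each of the 4 groups.

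Csf1 rose 3.66-fold in normoxia (log2 fold change 1.87, SE 0.30, 95% CI 1.23 to 2.51, adjusted p = 0.0104) and 3.80-fold in hypoxia (1.93, 95% CI 1.28 to 2.57, adjusted p = 0.000344). The difference between these responses was 0.05 (95% CI -0.85 to 0.96, adjusted p = 0.953), an interval that leaves room for a difference of nearly 1 in either direction. In normoxia the adjusted p was 0.0561 without replicate 1 of Nx P and 0.0627 without replicate 1 of Nx D, with log2 fold changes of 1.83 and 1.92. Means ordered as Nx D (15.43 ± 0.31), Hx D (14.82 ± 0.23), Nx P (13.55 ± 0.64) and Hx P (12.89 ± 0.32). Csf1 in 1% O2 differed from that in normoxia by -0.66 with PBS (adjusted p = 0.34) and by -0.61 with doranidazole (adjusted p = 0.14), and neither passed. When replicate number entered the fit of all arrays as a block, the adjusted p of the latter was 0.0356.

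Among all genes, Ei24 (root mean square difference 0.363) and Zfp365 (0.396) had the profiles nearest to that of Csf1. Csf1r, the receptor gene, lay at 2.48 to 3.72 on all arrays, below the array medians like the mean of the macrophage markers. Of these 9 markers only Itgam rose in hypoxia, by 0.88 (adjusted p = 0.00954). Il34, which encodes the other ligand of CSF1R and was chosen after its values had been seen, fell 2.80-fold with doranidazole in hypoxia (log2 fold change -1.48, adjusted p = 0.000814). In normoxia its difference was 0.36 (adjusted p = 0.669), and its responses differed by -1.85 between oxygen levels (adjusted p = 0.0045).

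Lif responded in opposite directions at the 2 oxygen levels. In normoxia the arrays read 5.90, 5.84 and 7.33 with PBS and 7.89, 7.86 and 8.93 with doranidazole. In 1% O2 they read 6.93, 8.57 and 8.34 with PBS and 6.02, 5.05 and 6.80 with doranidazole. Drug and PBS groups did not overlap in either condition, although in 1% O2 the nearest arrays were only Hx P replicate 1 and Hx D replicate 3, at 6.93 and 6.80. The means were 8.22 ± 0.61 in Nx D, 7.95 ± 0.89 in Hx P, 6.36 ± 0.84 in Nx P and 5.96 ± 0.88 in Hx D, and groups next to each other in this order overlapped.

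In hypoxia Lif fell 3.97-fold with doranidazole (log2 fold change -1.99, 95% CI -3.17 to -0.81, adjusted p = 0.0153). This call was lost without Hx P replicate 2 (adjusted p = 0.0638), Hx P replicate 3 (0.052) or Hx D replicate 2 (0.0702), and with array weights (0.0753). In normoxia the log2 fold change was 1.87 (95% CI 0.69 to 3.05) and did not pass (adjusted p = 0.125). As a blocked fit by replicate number it passed, with an adjusted p of 0.0312 over all arrays and 0.00148 over the 6 normoxia arrays alone. The same-numbered normoxia arrays differed by 1.98, 2.02 and 1.60.

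The difference between the 2 responses of Lif was -3.86 (SE 0.77, 95% CI -5.52 to -2.19, adjusted p = 0.00498), and it passed in all 20 alternatives tried, with adjusted p of up to 0.016. With doranidazole, Lif was lower in 1% O2 than in normoxia by 2.27 on the log2 scale (95% CI -3.44 to -1.09, adjusted p = 0.00725). With PBS it differed by 1.59 in the other direction, which did not pass (adjusted p = 0.171). Ntn4, which encodes a netrin (root mean square difference 0.507), and Btc, which encodes the EGF receptor ligand betacellulin (0.572), were the genes nearest to Lif. Osm, the gene beside Lif on chromosome 11 and of the same cytokine family, stayed at 2.21 to 3.49.

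**Figure D3:**
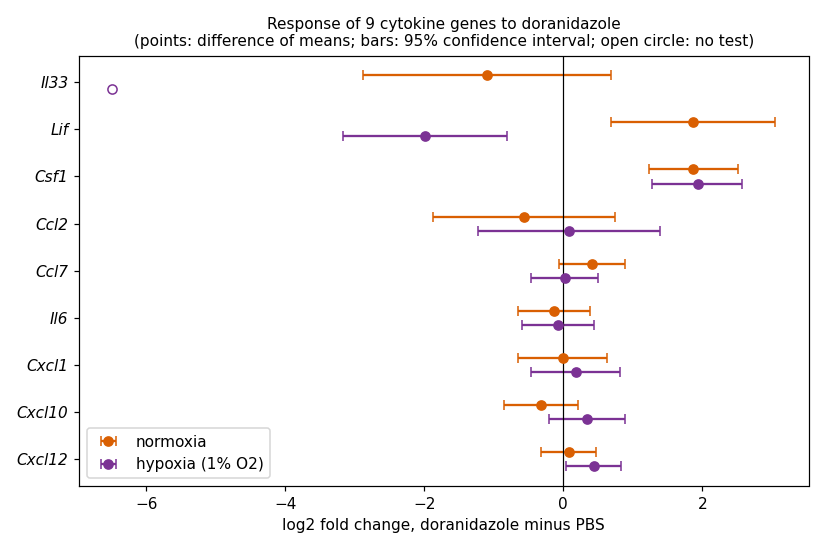
Log2 fold change of each of the 9 genes with doranidazole relative to PBS (horizontal axis), in normoxia (orange) and in 1% O2 (purple), as the difference between means of 3 arrays with its 95% confidence interval from limma; the open circle of Il33 in hypoxia has no test. The intervals of Csf1 lie above 0 in both conditions, and those of Lif lie on opposite sides of 0.

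Ccl2 and Ccl7, neighbours on chromosome 11, differed in their place relative to the array medians, with all Ccl2 group means (5.62 to 6.30) above and all Ccl7 group means (4.19 to 4.60) below them. Ccl2 read 6.42, 4.79 and 7.33 in Nx P, 5.38, 4.93 and 6.54 in Nx D, 6.09, 5.39 and 7.18 in Hx P, and 6.71, 5.94 and 6.24 in Hx D. Replicate 2 was the lowest of its group in all 4 groups, and the groups overlapped. The response of Ccl2 to doranidazole was -0.56 in normoxia (adjusted p = 0.834) and 0.08 in hypoxia (95% CI -1.23 to 1.39, adjusted p = 0.939), so that a change of about 2-fold in either direction lay within the interval. Ccl7 ranged from 4.00 to 4.96, and its response was 0.41 in normoxia (95% CI -0.07 to 0.89, adjusted p = 0.509) and 0.02 in hypoxia (95% CI -0.46 to 0.50, adjusted p = 0.966). Srsf2 (0.389) and Pdlim1 (0.418) had the smallest root mean square differences from Ccl2, and Mstn (0.144) and Nhlrc1 (0.159) from Ccl7.

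Il6, Cxcl1, Cxcl10 and Cxcl12 stayed below the array medians throughout. Il6 ranged from 2.51 to 3.36, Cxcl1 from 2.93 to 4.00, Cxcl10 from 2.83 to 3.99 and Cxcl12 from 2.94 to 3.72, and the groups overlapped for Il6, Cxcl1 and Cxcl10, whereas the Hx D arrays of Cxcl12 lay just above its Hx P arrays. None of these 4 genes passed in any comparison with limma, and the single unadjusted p under 0.05 was that of Cxcl12 in hypoxia (log2 fold change 0.44, 95% CI 0.04 to 0.83, adjusted p = 0.0969). With quantile normalization the log2 fold change of Cxcl12 in hypoxia was 0.21 (limma adjusted p = 0.444). Whether arrays follow transcript changes at these signals was not tested for these 4 genes. Other genes with signals as low passed in hypoxia, such as the interferon response gene Rsad2, at 2.45 to 3.97 (adjusted p = 0.00353). The nearest profiles were those of Dcdc2c and Arsi for Il6, 1700020A23Rik and Taar3 for Cxcl1, Acin1 and Dlgap2 for Cxcl10 and Flt3 and Bpifb2 for Cxcl12 (root mean square differences of 0.10 to 0.181). The members themselves hardly varied, so that a small difference says little here.

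Counted over the genes, 1 of 9 passed for doranidazole in normoxia (Csf1), where 1.59% of all probe sets did (1.29% higher and 0.293% lower). In hypoxia 2 of 8 passed, with Csf1 higher and Lif lower, which is close to the 27.7% of all probe sets (12.6% higher and 15.1% lower). The response differed between oxygen levels for 1 of 8 (Lif), against 13.5% of all probe sets (5.02% with a higher and 8.50% with a lower response in hypoxia). With PBS, 1% O2 changed 0 of 8 genes by limma, against 1.98% of all probe sets (1.46% higher and 0.518% lower), although unadjusted p was under 0.05 for Lif (0.012) and Csf1 (0.0436). With doranidazole, 1 of 8 (Lif) differed between 1% O2 and normoxia, against 30% of all probe sets (13.5% higher and 16.5% lower). The shares in hypoxia, in the difference of response and under doranidazole thus do not set these genes apart from the rest of the array. The comparisons share groups and are not independent of each other.

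The receptors of these cytokines were followed in a list of 14 measured genes (Il1rl1 is not analysed here). In normoxia 0 of 14 passed with doranidazole by limma, against 1.59% of all probe sets, with 2 at an unadjusted p under 0.05. In hypoxia 4 of 14 fell and none rose, 28.6% against 27.7% of all probe sets (12.6% higher and 15.1% lower). The median log2 fold change was -0.11 against 0.09 over all probe sets. Il1rap, the co-receptor for IL-33, read 13.49, 13.02 and 13.70 in Hx P and 10.39, 9.48 and 9.74 in Hx D, without overlap. It fell 11.6-fold (log2 fold change -3.53, SE 0.31, adjusted p = 3.31e-06), and its response differed from that in normoxia by -3.14 (adjusted p = 0.00045). The IL-6 receptor Il6ra fell by 1.94 in hypoxia (adjusted p = 0.000462), while its shared partner Il6st stayed at 11.03 to 13.18 (log2 fold change 0.55, adjusted p = 0.276). Lifr, the LIF receptor, lay between 3.51 and 4.62, below the array medians, in every group.

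Cxcr4 and Ackr3, the receptors of CXCL12, were higher in 1% O2 with PBS and lower again with doranidazole. Cxcr4 read 8.34, 6.93 and 6.21 in Nx P, 9.31, 9.76 and 9.04 in Hx P and 8.29, 7.12 and 6.72 in Hx D, so that every Hx P array lay above the arrays of both other groups. With PBS, 1% O2 raised Cxcr4 by 2.21 (adjusted p = 0.0373) and Ackr3 by 3.17 (adjusted p = 0.0214), the 2 of 14 receptors that passed (14.3%, against 1.98% of all probe sets, 1.46% of them higher). These calls were lost in 9 and 6 of 21 alternatives, with adjusted p of up to 0.198 and 0.115, which for Ackr3 included leaving out any Nx P array, Hx P replicate 1 or Hx P replicate 2. For Cxcr4 they included leaving out Nx P replicate 2 or 3, any Nx D array, Hx P replicate 1 or 2, or Hx D replicate 2. Doranidazole in hypoxia lowered Cxcr4 by 1.99 on the log2 scale (limma adjusted p = 0.00798) and Ackr3 by 2.43 (limma adjusted p = 0.0106). For Ackr3 these groups overlapped, with Hx D replicate 3 (6.55) above Hx P replicate 3 (6.37). Its call held in all 21 alternatives, with a limma adjusted p of up to 0.0485. The response of Cxcr4 differed between oxygen levels by -3.10 (adjusted p = 0.00946), and that of Ackr3 by -2.76, which did not pass (adjusted p = 0.0557). Cxcr2, Cxcr3 and Ccr2, receptors of CXCL1, CXCL10 and the CCL chemokines, stayed between 2.47 and 4.76.

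**Figure D4:**
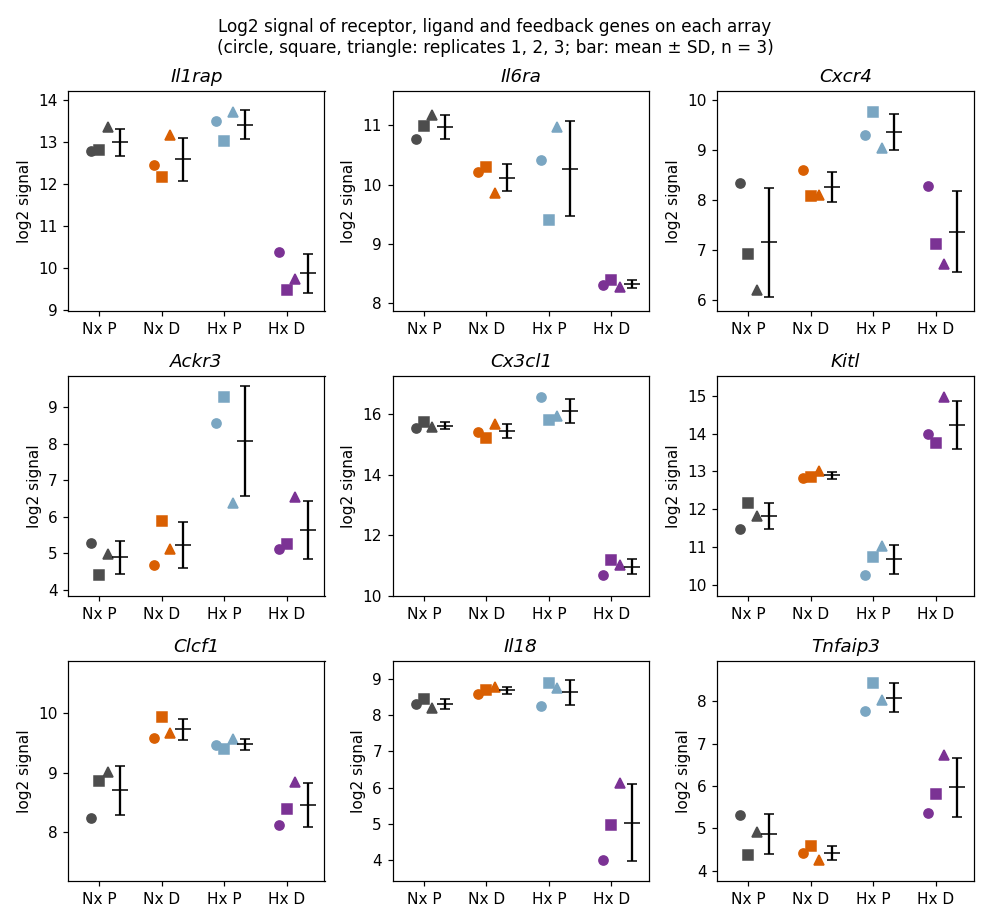
Log2 signal (vertical axes, with a separate range for each gene) of receptors (Il1rap, Il6ra, Cxcr4, Ackr3), further ligands (Cx3cl1, Kitl, Clcf1, Il18) and the NF-kB feedback gene Tnfaip3 on each array by group, with the mean ± SD of 3 arrays. Il1rap, Cx3cl1 and Il18 lay lowest in Hx D, and Clcf1 was higher with doranidazole in normoxia and lower with it in 1% O2.

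Among 9 genes of the JAK-STAT3 pathway, through which LIF and IL-6 signal, 0 passed in normoxia by limma (2 at an unadjusted p under 0.05, and 1.59% of all probe sets passed) and 3 in hypoxia, 33.3% against 27.7% of all probe sets. There the kinase gene Jak2 fell by 1.99 (adjusted p = 6.35e-05), whereas Pim1, a STAT3 target kinase, rose by 1.76 (adjusted p = 0.000333). Jak1 rose by 0.64 (adjusted p = 0.0159), a call lost with median normalization and without Hx P replicate 1 (adjusted p of up to 0.0658). Clcf1, which encodes another ligand of gp130 receptors, read 8.23, 8.86 and 9.01 in Nx P, 9.59, 9.93 and 9.67 in Nx D, 9.47, 9.39 and 9.56 in Hx P and 8.11, 8.39 and 8.84 in Hx D. As for Lif, its drug and PBS arrays did not overlap and their order was reversed between oxygen levels. Clcf1 rose by 1.03 in normoxia (adjusted p = 0.0495), a call lost in 11 of 22 alternatives, among them leaving out any normoxia array, Hx P replicate 1 or 2, or Hx D replicate 2 (adjusted p of up to 0.186). It had a log2 fold change of -1.03 in hypoxia (adjusted p = 0.00539), and the difference was -2.06 (adjusted p = 0.00131).

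Many cytokine promoters are activated by NF-kB. Of 16 measured NF-kB subunit and feedback genes, 0 passed with doranidazole in normoxia by limma (2 at an unadjusted p under 0.05), where 1.59% of all probe sets did. In hypoxia 5 were raised and 1 was lowered, or 37.5%, against 27.7% of all probe sets (12.6% higher and 15.1% lower). The 5 include 1 gene that passed in only 4 of 21 alternatives. Nfkb2 rose by 1.39 (adjusted p = 0.0013), and the inhibitor genes Nfkbia by 1.19 (adjusted p = 0.00347) and Nfkbib by 1.82 (adjusted p = 0.0059). Tnfaip3, a deubiquitinase that terminates NF-kB signaling, read 7.76, 8.44 and 8.04 in Hx P and 5.36, 5.80 and 6.73 in Hx D and fell by 2.12 (adjusted p = 0.000375). Tnfaip3 was also the gene of this list that rose in 1% O2 with PBS, by 3.21 (adjusted p = 0.000199). Of 18 interferon response genes, a group that Cxcl10 belongs to, 0 passed in normoxia by limma (2 at an unadjusted p under 0.05). In hypoxia 4 rose and none fell, 22.2% against 27.7% of all probe sets (12.6% higher and 15.1% lower). Irf1, a transcription factor, led them (log2 fold change 1.86, limma adjusted p = 0.000307). The number that passed in hypoxia was 2 without Hx D replicate 2, and Gbp2, one of the 4, passed in only 5 of 20 alternatives.

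Ligands outside the 9 genes were counted in the same way. Of 28 other chemokines, 0 passed in normoxia, at an unadjusted p under 0.05 as well as after adjustment by limma, and 2 rose and 2 fell in hypoxia, 14.3% against 27.7% of all probe sets. The 4 calls became 2 without Hx P replicate 1 and 7 without Hx D replicate 3, and those that rose, Ccl4 and Ccl11, were lost in 4 and 1 of 21 alternatives. Cx3cl1, which encodes the membrane-bound chemokine fractalkine, read 16.56, 15.83 and 15.95 in Hx P and 10.69, 11.18 and 11.03 in Hx D. It fell 35.5-fold in hypoxia (log2 fold change -5.15, SE 0.22, adjusted p = 2.17e-08), whereas in normoxia the difference was -0.19 (adjusted p = 0.862), and the responses differed by -4.96 (adjusted p = 2.92e-06). Of 48 other cytokine and growth factor genes, 1 rose in normoxia (Clcf1), 2.08% against 1.59% of all probe sets. In hypoxia 8 rose and 7 fell, 31.2% against 27.7% of all probe sets (12.6% higher and 15.1% lower). The number called in hypoxia was 11 to 18 when 1 array was left out. The least stable of those that rose passed in only 8 of 20 alternatives. Kitl, the stem cell factor gene, rose 11.8-fold in hypoxia (log2 fold change 3.56, adjusted p = 2.8e-06). Il18, like Il33 a gene of the IL-1 family, fell 12.1-fold (log2 fold change -3.60, adjusted p = 2.26e-05), and Tgfb2 fell 9.15-fold (adjusted p = 5.54e-06). The median log2 fold change in hypoxia was 0.31 over the JAK-STAT3 genes, 0.34 over the NF-kB genes, 0.18 over the interferon response genes, 0.16 over the other chemokines and 0.15 over the other cytokines, against 0.09 over all probe sets.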

How the data were processed

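Total RNA of GSC-H cells was hybridized to Clariom S Mouse arrays. The authors processed the arrays with Transcriptome Analysis Console and deposited log2 signals of 22206 probe sets on 12 arrays; their summarization and normalization are not given in the sources used here. Both deposited tables held equal values (0 differing), and none of 66 array pairs was identical. In the platform annotation 19572 probe sets have 1 gene symbol and 2634 none. The deposited log2 values were fitted without further scaling in limma 3.58.1 (R 4.3.3) with 4 groups, two-sided, with Benjamini-Hochberg adjustment over all probe sets. The number of arrays limits the precision.

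The 9 genes, the gene lists and the tests were chosen with earlier results of these data known. Named were the 9 genes, the receptors, at most 5 genes per list and comparison by smallest p among those that passed, and the nearest profiles (5 for Il33, 2 for each other gene). The analysis was tested on simulated data.

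To check pairing, the deviation of each array from its group mean was correlated between groups over probe sets. Same-numbered arrays of Nx P and Nx D correlated at 0.202, 0.329 and 0.326, each best with its own number, those of Hx P and Hx D at -0.0202, -0.024 and -0.0466. Those of Nx P and Hx P correlated at -0.0205, 0.264 and 0.356, where replicates 2 and 3 were best with their own number. The normoxia numbers were therefore regarded as paired from the data, but the main fit held no block and treated all arrays as unpaired. Replicate number entered only through the replicate block, an alternative. That block is given where it changed a call of the followed cytokine genes. Alternatives were quantile, median and cyclic loess normalization, removal of probe sets whose mean was under the 30th percentile, array weights, a robust prior with a trend, 1 probe set per gene, the 2 groups alone, the replicate block and each array left out. The replicate block over the normoxia arrays alone was added after seeing the data. Biological replicates come from 1 experiment per the study, and the p-values cover only the spread among these arrays. Other experiments of the study were not used here.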

Additional observations from a re-analysis of the deposited data

Results flagged for a closer look

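The response of Lif to doranidazole differed between oxygen levels by -3.86 on the log2 scale (hypoxia minus normoxia, 95% CI -5.52 to -2.19, adjusted p = 0.00498, limma, n = 3 arrays per group). Lif was the only one of the 8 tested genes to pass here (12.5%), against 13.5% of all probe sets. Its response in normoxia did not pass (limma adjusted p = 0.125), nor did it in 18 of 22 alternatives. It passed with array weights, with the 2 groups alone and in both fits with the replicate block. Its response in hypoxia (limma adjusted p = 0.0153) passed in 17 of 21 alternatives. All 3 Nx D arrays lay above all 3 Nx P arrays, and all 3 Hx D arrays lay below all 3 Hx P arrays.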

How the results depend on the processing

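With 3 arrays per group, no probe-level files and signals of Il6, Cxcl1, Cxcl10 and Cxcl12 below the array medians, modest changes of these genes could be missed. The number of the 9 genes that passed in normoxia was 2 with array weights, with the replicate block over all arrays and with the 2 groups alone, 3 with the replicate block over the normoxia arrays, and 0 to 1 when 1 array was left out (0 without Nx P replicate 1 or Nx D replicate 1). In hypoxia it was 1 with array weights and 1 to 2 when 1 array was left out (1 without Hx P replicate 2 or 3 or Hx D replicate 2). Between oxygen levels with doranidazole it was 2 with the replicate block over all arrays. The block changed no other call of the 9 genes. Same-numbered Hx P and Hx D arrays shared only a number.

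Signs turned only for uncalled values. The hypoxia response of Ccl7 was -0.165 with quantile, -0.108 with median and -0.123 with cyclic loess normalization and -0.067 with array weights, and that of Ccl2 was -0.045 with median normalization. The Csf1 difference of response was -0.059 with median normalization, and Ccl2 in 1% O2 against normoxia with PBS was -0.277 with array weights. Leaving out 1 array gave -1.26 to 0.011 for Ccl2 in normoxia, -0.34 to 0.56 for Ccl2 and -0.14 to 0.10 for Ccl7 in hypoxia, -0.29 to 0.35 for the Csf1 difference, -0.66 to 0.61 for Ccl2 in 1% O2 with PBS and -0.26 to 0.074 for Ccl7 in 1% O2 with doranidazole. The 4 dim genes had 42 sign changes in 405 values and 0 calls. Scaling moved the median hypoxia response of all probe sets from 0.094 to -0.0306 (median normalization). Of 1377 values of genes and lists under the settings that kept all arrays, 1231 kept their direction and side of the threshold, or for counts stayed within 1.5 times. The causes of these changes were not tested.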
